A study of Homo sapiens with 4 samples.

Results

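The regions described here are the H3K4me1 peaks of a dense block near the centromeric end of the long arm of chromosome 14, in a list of peaks called in HepG2 cells depleted of LSD2 against control cells. They were chosen as the distinct peaks of chromosome 14 whose midpoint lies from 20800000 to 44000000 on hg19. The rule found 2252 peaks of the 160601 distinct peaks of the list, 1.40% of them. The block was chosen by its density of these same peaks, and every measure below comes from the same peak call. All values are therefore descriptions of the list, and no test was made.

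HepG2 is an established line of human liver cancer cells. The 4 samples are H3K4me1 chromatin immunoprecipitation (ChIP) and input libraries, 1 of each from cells treated with siRNA against LSD2 and 1 of each from control cells. Both conditions were grown in high-glucose medium with serum and antibiotics and siRNAs were introduced with a lipid reagent. The file header names the control library after GL3, a luciferase sequence that human cells lack. The peak call used only the knockdown H3K4me1 library, as treatment, and the control H3K4me1 library, as background. The header gives the 2 libraries different sequencing runs, so run and condition cannot be told apart. With 1 library per condition there is no replicate error, and the depth of the libraries is unknown. The intervals below take peaks as independent and cover no more than counting error. A peak is a place called as enriched in the knockdown over the control library. The list holds no height, fold or p-value, so each peak counts alike.

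H3K4me1 is histone H3 with a single methyl group on the lysine called K4, and it is found at enhancers and on the flanks of active promoters. LSD2, encoded by KDM1B, is a flavin-dependent demethylase that removes methyl groups from mono- and dimethylated H3K4, and it is known to bind the bodies of transcribed genes. Chromosome 14 is acrocentric: its short arm holds ribosomal RNA genes and other repeats, and mappable unique sequence begins on the long arm.

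The proximal long arm carries genes of very different tissues. A list of 28 genes of this arm was matched in full to chromosome 14 of a RefSeq gene table of GRCh38.p14. That build differs from hg19, so the table gave only their order, and no peak was assigned to a gene. In the order from the centromere, the list opens with MYH6 and MYH7, the heavy chains of cardiac myosin, and NFATC4, a calcium-regulated transcription factor. CMA1, CTSG, GZMH and GZMB follow, serine proteases of mast cells, neutrophils and cytotoxic lymphocytes. Farther along come the neural genes NOVA1, an RNA-binding splicing regulator, and, after PRKD1, COCH and AKAP6, NPAS3, a brain transcription factor. Then follow EGLN3, an oxygen-sensing hydroxylase, and NFKBIA, the inhibitor of NF-kB. NKX2-1, a thyroid and lung regulator, and PAX9, a regulator of tooth and pharyngeal pouch development, lie before FOXA1, a pioneer transcription factor of liver and other endodermal tissues. SSTR1, a somatostatin receptor, SEC23A, a subunit of the secretory vesicle coat, and LRFN5, a synaptic adhesion protein, close the list.

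The block carried peaks at a higher density than the rest of its chromosome and than each of the densest autosomes. It held 97.1 peaks per Mb (95% Poisson interval 93.1 to 101.2) over its length. The rest of chromosome 14, from 44 Mb to the last peak, held 1820 peaks at 28.8 peaks per Mb (27.5 to 30.1), so the ratio of densities was 3.37 (exact 95% interval 3.17 to 3.59). Only 43 peaks lay before the block. The block made up 26.3% of the length of chromosome 14 between its first and last peak, and held 54.7% of its peaks and 60.9% of the bases its peaks covered. Peaks covered 37.5 kb per Mb of the block and 8.61 kb per Mb of the rest of the chromosome, a ratio of 4.35.

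**Figure D1:**
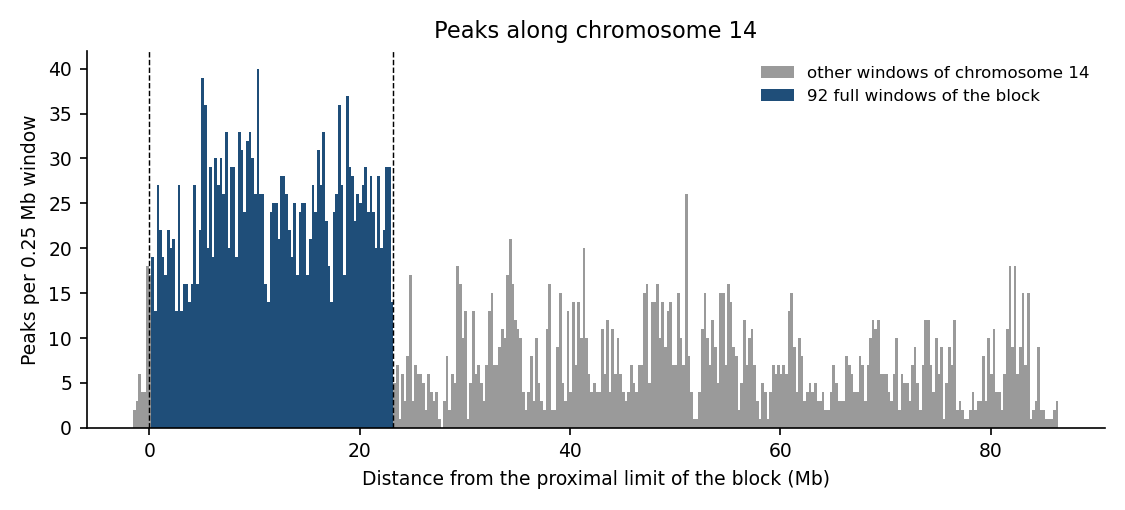
Peaks in each full 0.25 Mb window of chromosome 14, plotted against the distance in Mb from the proximal limit of the block; dashed lines mark its limits. The 92 full windows of the block (blue) hold 13 to 40 peaks, and the windows beyond the distal limit (grey) hold at most 26.

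Chromosomes 2, 6, 20 and 10 were the autosomes of highest density in the list and served as the comparison. Pooled, they held 73.1 peaks per Mb (72.4 to 73.8), and the block was 1.33 times as dense (1.27 to 1.39). The ratio was 1.27 (1.22 to 1.33) against chromosome 2 alone and 1.42 (1.36 to 1.49) against chromosome 10. On a whole chromosome, dense and sparse stretches average out. The densest stretch of the same length was therefore also found on each autosome in steps of 0.25 Mb. On chromosome 2 it ran from 153000001 to 176200000 with 2166 peaks, or 93.4 per Mb, and on chromosome 6 from 127500001 to 150700000 with 2110 peaks, or 90.9 per Mb. These 2 stretches came close to the block in peak number. Chromosome 10 reached 80.8 per Mb and chromosome 20 reached 75.6. The densest such stretch of chromosome 14 began at 20500001 and held 2256 peaks, 4 more than the block as given.

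Within the block, no window of 0.25 Mb was near empty. The 92 full windows held a median of 25 peaks, with quartiles of 20 and 28 and a range from 13 to 40. Of these, 48 windows (52.2%) held 25 or more peaks, a level reached by 8.35% of the windows of the 22 autosomes. All 92 held 13 or more, a level reached by 57.9% of the autosomal windows. The block was chosen for its density, so nothing is read from either share. Windows of the rest of chromosome 14 held a median of 6 peaks and at most 26.

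By the coefficient of variation of its windows, the block was more level than the 4 whole chromosomes. In the same measure it was about as level as the densest stretches of equal length on chromosomes 6 and 20. Its windows had a standard deviation of 6.16 peaks around a mean of 24.3, a coefficient of variation of 0.253, where counting error alone would give 0.203. The coefficient was 0.330 on chromosome 2, 0.365 on chromosome 6, 0.316 on chromosome 20 and 0.401 on chromosome 10, each with a counting part from 0.229 to 0.242. In the densest stretches of equal length it was 0.282 on chromosome 2, 0.256 on chromosome 6 and 0.259 on chromosome 20, and 0.355 on chromosome 10. The counting part is larger where windows hold fewer peaks, as in the stretch of chromosome 20, and was not computed for these stretches. No window of the block held fewer peaks than 0.5 times the block's median, against 5.62% of the windows of the 4 chromosomes measured by the pooled median. By their own medians, the stretch of chromosome 6 also had 0 low windows of 92, those of chromosomes 2 and 20 had 1 each and that of chromosome 10 had 7. The emptiest window held 12 peaks in the stretch of chromosome 6 and 10 in that of chromosome 2, against 13 in the block. The block's count of 0 depended on where windows began. Shifting them by 125 kb gave 4 low windows of 92, which held 8 to 11 peaks.

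**Figure D2:**
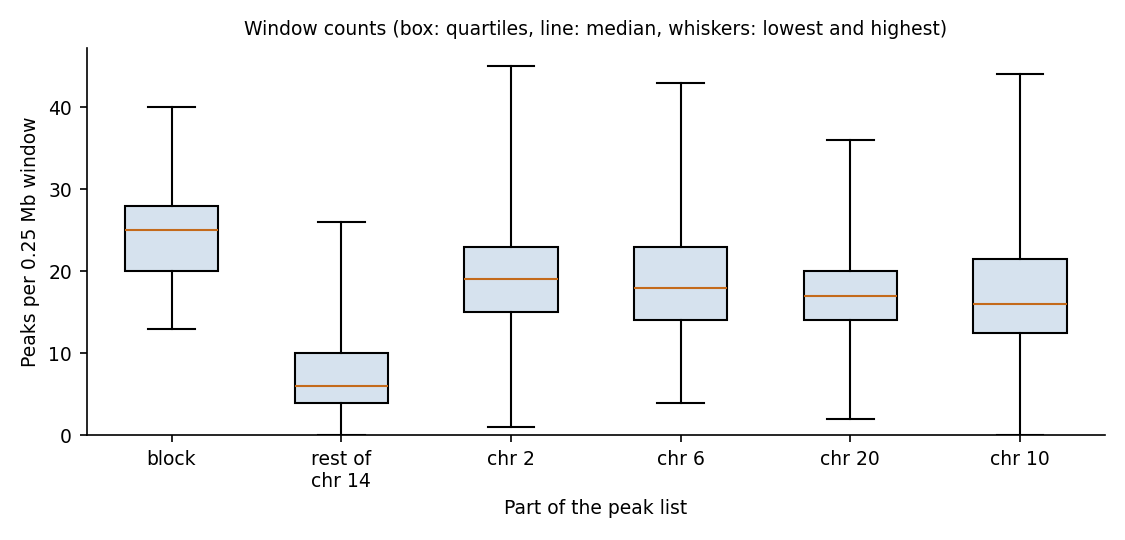
Peaks per full 0.25 Mb window in the block, in the rest of chromosome 14 and on chromosomes 2, 6, 20 and 10 (box: quartiles, line: median, whiskers: lowest and highest window). The block has the highest median, 25 peaks, and its emptiest window, with 13 peaks, is fuller than the emptiest window of each other part.

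The fullest window of the block lay from 31000001 to 31250000 and held 40 peaks. The next lay from 25750001 to 26000000 with 39 peaks, and the window after it, from 26000001 to 26250000, held 36. A window from 39500001 to 39750000 held 37 peaks, and one from 38750001 to 39000000 held 36. These full windows were of different kinds. The one at 39500001 had a median peak width of 445 bp, and its peaks covered 21.7 kb, the most of any window in the block. The 39 peaks from 25750001 had a median width of 299 bp and covered 12.7 kb, and the 36 from 38750001 had a median of 273.5 bp and covered 10.8 kb.

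Windows from 21250001, 23250001 and 23750001 held 13 peaks each, and 4 windows, from 24500001, 32000001, 38000001 and 43750001, held 14 each. Of these 7, 4 lay in the first 4 Mb of the block and the others were spread to its distal end. Of the 4 low windows found with shifted limits, 3 lay in the same proximal stretch, from 21125001, 23875001 and 24375001, with 10, 11 and 8 peaks. The other, from 31875001, also held 8. Few peaks did not have to mean narrow ones. The window from 23250001 had a median width of 548 bp over its 13 peaks and the window from 32000001 a median of 545.5 bp over 14, both above the median of the block. Both were picked for their widths after the values were seen. The others of the 7 had medians from 290.5 to 386 bp, on both sides of the block's 328 bp.

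Across the 92 windows, peak number and median width went weakly in opposite directions (Pearson r -0.21, Spearman rho -0.20). Over the windows of chromosomes 2, 6, 20 and 10, Spearman's rho was positive, from 0.15 to 0.33, and over the rest of chromosome 14 it was 0.35. The block's windows held 13 to 40 peaks, a narrower range than on those 4 chromosomes. The densest stretches of equal length were not measured in this way, so the opposite sign is not shown to be particular to the block. These are correlations across windows of 1 peak call, which share libraries and depth, and the medians of emptier windows rest on fewer peaks.

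The 2 limits set by the rule lay differently against the changes in density. At the distal limit, density was lower from one window to the next. The last 2 Mb of the block held 186 peaks, or 93 per Mb (80.1 to 107.4), and the next 2 Mb held 50, or 25 per Mb (18.6 to 33.0). In windows of 0.25 Mb, the last inside the limit held 14 peaks and the first beyond it 5. The last 3 peaks inside lay from 43863052 to 43863351, from 43875664 to 43875965 and from 43920189 to 43920363, with widths of 300, 302 and 175 bp. A peak-free gap of 232.2 kb followed, longer than any gap inside the block. The first 3 peaks beyond it began at 44152580, 44176508 and 44219013 and were 157, 552 and 352 bp wide. Peaks were also narrower beyond this limit: the median was 312 bp in the 2 Mb before it and 265.5 bp in the 2 Mb after it.

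At the proximal limit there was no such break. The last 3 peaks outside began at 20758084, 20772172 and 20790130, with widths of 304, 221 and 380 bp, and the first 3 inside began at 20799853, 20801565 and 20821643, with widths of 337, 623 and 192 bp. The 300 kb before the limit held 21 peaks, or 70 per Mb (43.3 to 107.0), and the first 200 kb inside held 14, also 70 per Mb (38.3 to 117.4). The rise lay farther back, at a peak-free gap of 146.5 kb from 20337215 to 20483761. From 20000000 to 20500000 the density was 16 per Mb (6.91 to 31.5), and from the first peak of the chromosome to 20000000 it was 15.6 per Mb (8.52 to 26.1). The dense stretch thus began near 20500000, before the limit set by the rule.

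Peaks of the block were wider than those of the rest of chromosome 14 and similar in median to those of other dense stretches. Median width was 328 bp (quartiles 238 and 422 bp, range 145 to 3219 bp), against 289 bp in the rest of chromosome 14 and 323 bp on chromosomes 2, 6, 20 and 10 pooled. A width of 420 bp is an edge in the distribution of the whole list, above which peaks become scarce. Of the block's peaks, 574 were 420 bp or wider, 25.5% (95% Wilson interval 23.7 to 27.3%), where the whole list had 17.8%. The share was 20.9% (20.5 to 21.3%) on the 4 dense chromosomes and 9.51% (8.24 to 10.9%) in the rest of chromosome 14. Neither value was particular to the block. Among the densest stretches of equal length, the median was 331 bp on chromosome 10, 333 bp on chromosome 17 and 339 bp on chromosome 22, and the share of 420 bp or more was 25.7% on chromosome 17 and 27.0% on chromosome 22. Per Mb, the block held 1.25 times as many peaks under 420 bp as the 4 chromosomes, 1.62 times as many of 420 bp or more and 2.87 times as many of 1 kb or more. In the finer width bins the ratio did not rise steadily: it was 1.42 from 220 bp, 1.08 from 340 bp, 1.54 from 420 bp and 1.36 from 500 bp. Against the rest of chromosome 14 the ratio was 2.78 for peaks under 420 bp and 9.05 for peaks of 420 bp or more.

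**Figure D3:**
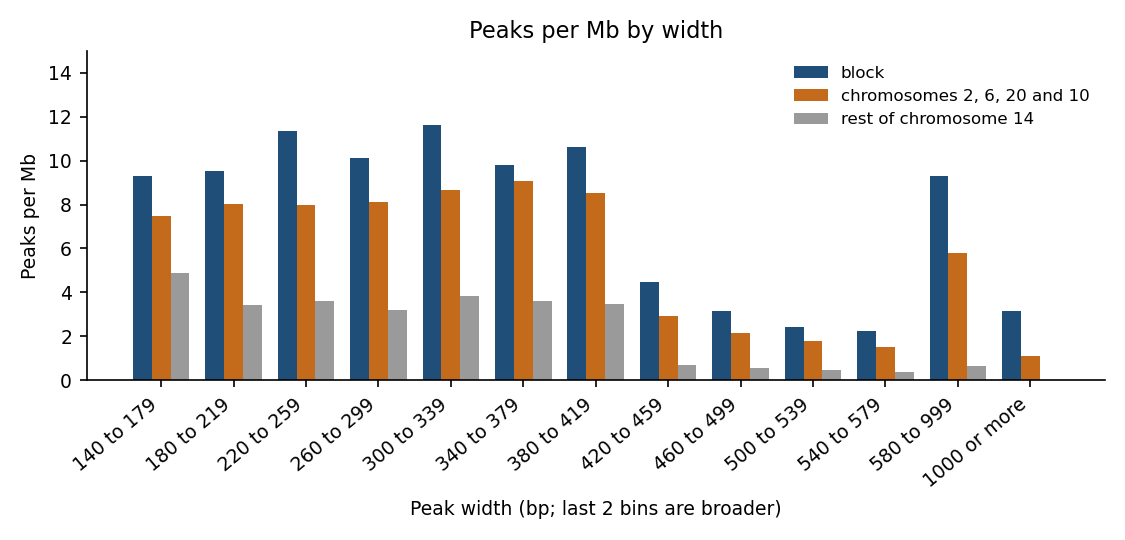
Peaks per Mb in each width bin for the block, for chromosomes 2, 6, 20 and 10 pooled and for the rest of chromosome 14; the last 2 bins are broader than the others. Bars of the block are the highest in every bin, and the rest of chromosome 14 has no peak of 1000 bp or more.

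Peaks of 1 kb or more were the clearest contrast within chromosome 14. The block held 73 of them, 3.24% of its peaks (2.59 to 4.06%), against 0.899% of the whole list. None of the 1820 peaks beyond 44 Mb was that wide, and the widest there was 946 bp. A count of 0 allows a share of up to 0.165% (3 counts of the total), or 0.211% by the Wilson interval. Per Mb, the observed value of the block was 66.3 times what 3 peaks over the rest of the chromosome would give. That ratio leaves out the block's own counting error. The stretches of equal length on chromosomes 2 and 6, which nearly matched the block in density, held 37 and 33 such peaks. The densest stretch of chromosome 17, from 48250001 to 71450000, came nearer with 45, at 78.0 peaks per Mb. Reads per base were not analysed in any of these stretches.

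**Figure D4:**
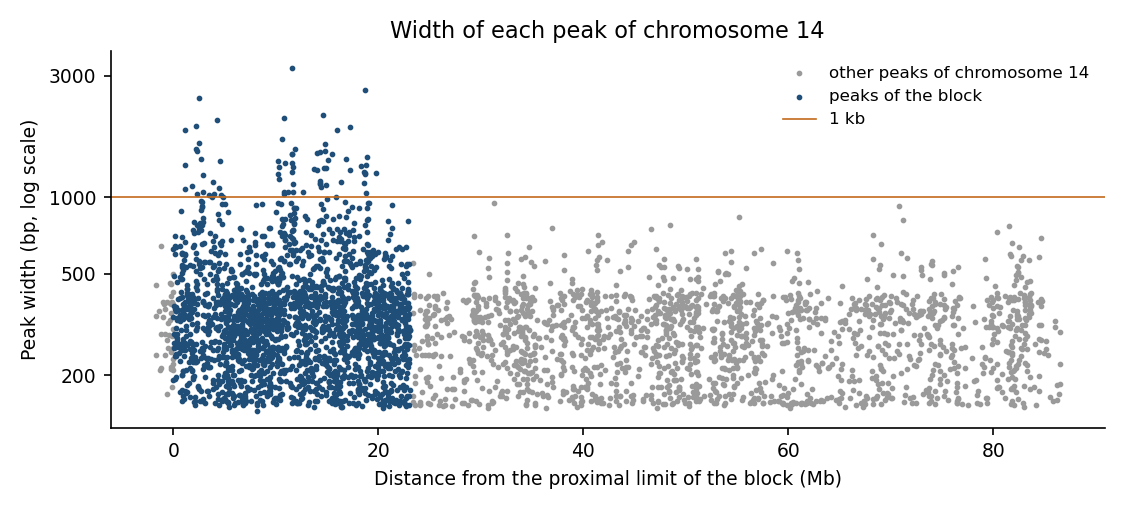
Width of each peak of chromosome 14 in bp (log scale) against the distance in Mb from the proximal limit of the block; the line marks 1 kb. All 73 peaks above the line lie in the block, in groups separated by a stretch of 5.58 Mb without one.

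The widest peak of the block, 3219 bp, lay from 32409842 to 32413060. It had 2 other peaks within 5 kb and 8 within 50 kb. The next, 2639 bp, lay from 39518244 to 39520882, with 15 other peaks within 50 kb, in the window of greatest covered length. The third, 2447 bp from 23292257 to 23294703, stood apart: the nearest peak was 9478 bp away, and its window was one of the emptiest, with 13 peaks. Peaks of 2102 bp (35444189 to 35446290), 2039 bp (31633914 to 31635952) and 2018 bp (25031130 to 25033147) completed the 6 peaks of 2 kb or more.

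The last 4 of the 10 widest lay from 23046839 to 23048739 (1901 bp), from 38059000 to 38060892 (1893 bp), from 21920508 to 21922349 (1842 bp) and from 36784192 to 36786029 (1838 bp). Their surroundings varied. The peak at 38059000 had only 2 other peaks within 50 kb, and the nearest was 18159 bp away. The peak at 31633914 had neighbours 69 and 694 bp away and 18 other peaks within 50 kb. Of the 10, 4 had no other peak within 5 kb. Over the whole list, 8 of the 50 widest peaks and 11 of the 100 widest lay in the block, which holds 1.40% of all peaks.

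Wide peaks were grouped along the block. The 73 peaks of 1 kb or more fell in 33 windows of 0.25 Mb, and 56 of them shared a window with another. The window from 32250001 to 32500000 held 8, the window from 39500001 held 6 and the window from 35000001 held 5. The first of the 73 began at 21903508 and the last ended at 40583515, so the last 3.42 Mb of the block had none among 339 peaks. The longest distance between consecutive wide peaks was 5.58 Mb, from 25463083 to 31041207. That stretch was no gap in the list: it held 624 peaks at 111.9 per Mb, more than the 97.1 of the block as a whole. Its widest peak was 999 bp, just under the limit, its median was 308 bp, and 15.4% of its peaks were 420 bp or wider. This stretch and the windows of most wide peaks were singled out after their values were seen.

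The block was also divided into 4 stretches of 5.8 Mb. The first stretch, ending at 26.6 Mb, held 482 peaks at 83.1 per Mb (75.8 to 90.9), of which 28.6% (24.8 to 32.8%) were 420 bp or wider. The second, to 32.4 Mb, held 623 peaks at 107.4 per Mb (99.1 to 116.2), with 21.7% (18.6 to 25.1%) of 420 bp or more. The third, to 38.2 Mb, held 548 at 94.5 per Mb (86.7 to 102.7), with 32.1% (28.3 to 36.1%). The fourth held 599 at 103.3 per Mb (95.2 to 111.9), with 20.9% (17.8 to 24.3%). The 2 stretches of lower observed density thus had the larger shares of wide peaks, and they held 21 and 29 peaks of 1 kb or more, against 13 and 10 in the other 2. The density interval of the third overlapped those of all the others, so its place in the order of density is not resolved by counting error. Covered length varied less than either, from 33.8 to 40.2 kb per Mb.

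**Figure D5:**
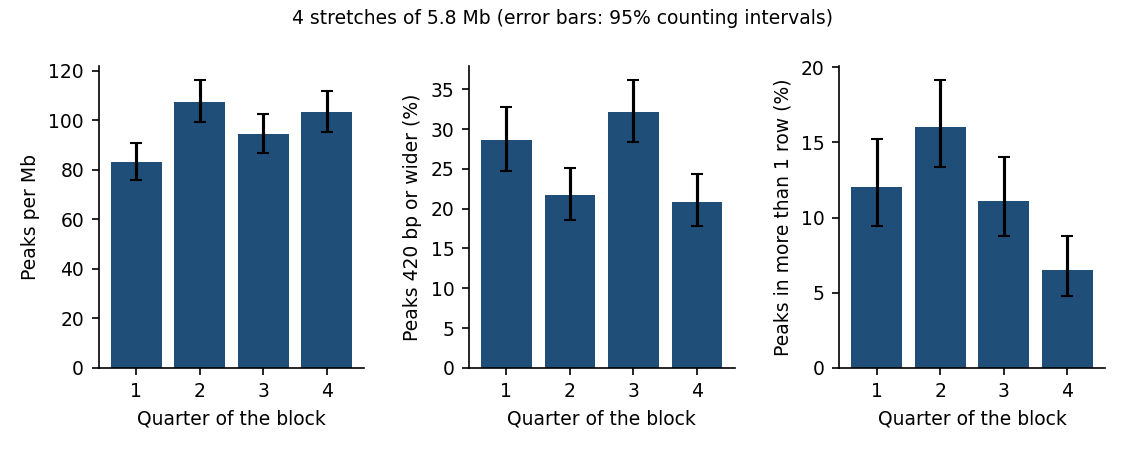
Peaks per Mb, share of peaks 420 bp or wider and share of peaks listed in more than 1 row, in each of 4 stretches of 5.8 Mb numbered from the proximal limit; error bars are 95% intervals for counting error (Poisson for density, Wilson for shares). Stretches 1 and 3 are lower in observed density and higher in wide peaks than stretches 2 and 4, but the density interval of stretch 3 overlaps the others. The share in more than 1 row is lowest in stretch 4, at 6.51%.

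Neighbouring peaks of the block lay close together. The gap between consecutive peaks had a median of 6.29 kb (quartiles 2.37 and 13.4 kb), against 18.0 kb in the rest of chromosome 14 and 8.29 kb on the 4 dense chromosomes. Another peak lay within 5 kb of 67.5% of the block's peaks (65.5 to 69.4%), against 58.8% (58.3 to 59.2%) on the 4 chromosomes, 36.6% (34.5 to 38.9%) in the rest of chromosome 14 and 52.2% in the whole list. A denser set of peaks has closer neighbours by its density alone. Measured against its own mean, the median gap of the block was 0.636 of the mean, just above the 0.605 to 0.632 of the 4 chromosomes, and the rest of chromosome 14 gave 0.523. The coefficient of variation of the gaps was 1.11 in the block and 1.16 to 1.40 on the 4 chromosomes. Whole chromosomes mix dense and sparse stretches, and gaps in the densest stretches of equal length were not measured. A more even spacing is therefore not shown to be particular to the block.

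Long gaps were rare. Of 2251 gaps in the block, 27 (1.20%) were over 50 kb, against 3.33% on the 4 chromosomes and 21.9% in the rest of chromosome 14. A denser set of peaks has fewer long gaps by its density alone, so nothing is read from these shares. The longest, 108.1 kb, ran from 34329955 to 34438081. The next ran from 23971742 to 24061389 (89.6 kb), from 21334893 to 21419023 (84.1 kb), from 31988139 to 32058513 (70.4 kb) and from 31691368 to 31761038 (69.7 kb). Of the 27, 14 fell in the first 5.8 Mb. At the other end of the range, 284 gaps (12.6%) were under 1 kb. The peaks from 30364877 to 30365221 and from 30365222 to 30365782 touched, with a gap of 0 bp. Gaps of 9, 13, 21 and 25 bp followed the peaks that end at 22070056, 39745397, 30424511 and 25571098. Such pairs are counted here as 2 peaks, and merging peaks less than 1 kb apart lowered the density of the block to 84.8 peaks per Mb.

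Runs of 3 or more peaks with gaps of at most 5 kb held 908 of the block's peaks, 40.3% (38.3 to 42.4%), where the whole list had 25.3%. The share was 31.0% (30.6 to 31.5%) on the 4 dense chromosomes and 13.7% (12.2 to 15.3%) in the rest of chromosome 14. There were 242 runs, 10.4 per Mb, against 6.08 and 1.19 per Mb in those parts. The densest stretches of equal length came nearer, with 211 runs (9.09 per Mb) on chromosome 2 and 207 (8.92 per Mb) on chromosome 6. Most were short: 138 had 3 peaks, 62 had 4 and 42 had 5 or more. A run spanned 6.38 kb in the median (quartiles 4.60 and 9.33 kb), and peaks covered 19.7% of that span in the median. Peaks in runs were no wider than the others, with medians of 324.5 bp in runs and 331 bp outside them.

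The longest run had 11 peaks over 30.5 kb, from 26228396 to 26258897, inside the stretch without wide peaks. Its peaks covered 11.7% of its span. Another 4 runs had 8 peaks each. The run from 31620882 to 31637366 spanned 16.5 kb and was 35.8% covered, and it contained the fifth widest peak of the block. The run from 39711586 to 39724779 spanned 13.2 kb and was 28.1% covered. The run from 25552940 to 25571509 spanned 18.6 kb, of which 18.4% was covered, and the run from 24622884 to 24645279 spanned 22.4 kb, of which 11.3% was covered. These 4 runs of equal number thus ranged from 11.3% to 35.8% in covered share.

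Some peaks were written in more than 1 deposited row with the same start and end. In the block this held for 258 peaks, 11.5% (10.2 to 12.8%), near the 10.7% of the whole list. The share was 8.99% (8.73 to 9.26%) on the 4 dense chromosomes and 18.8% (17.1 to 20.7%) in the rest of chromosome 14. These intervals take peaks as independent, but repeated peaks came in stretches, so the intervals are too narrow to compare the parts. What a repeated row stands for is not given in the sources used here. Of the 258 peaks, 231 were listed 2 times, 18 were listed 3 times and 9 were listed 4 times or more.

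Repeated peaks lay in stretches. The 258 fell into 77 stretches of consecutive repeated peaks, and the 13 stretches of 5 or more peaks held 150 of them. The longest had 31 peaks over 232.3 kb, from 30406094 to 30638392, each listed 2 or 3 times. It was followed by 24 peaks over 208.5 kb from 35567487 to 35775973 and by 23 peaks over 194.6 kb from 27731644 to 27926231. Of the 92 windows, 42 had no repeated peak. The share of repeated peaks was 16.1% (13.4 to 19.1%) in the second of the 4 stretches of 5.8 Mb and 6.51% (4.80 to 8.78%) in the fourth.

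The peaks with most rows lay in the first stretch, away from those long series. The peak from 22947654 to 22947888 was listed 6 times. Peaks from 21059897 to 21060139, from 21060273 to 21060637 and from 21062862 to 21063147 lay side by side and were listed 5 times each, as were the peaks from 22986663 to 22986928, from 22990892 to 22991361 and from 22999031 to 22999255. The peak listed 6 times and the last 3 belong to a stretch of 10 repeated peaks over 124.1 kb, from 22882254 to 23006329, listed 2 to 6 times. These 7 peaks were 225 to 470 bp wide.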

How the data were processed

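The deposited list gives the chromosome, start and end of each peak and no score. MACS was run by the authors on trimmed reads without duplicates, per the file header. Its settings there are 128 bp for both read and fragment length, 1e-05 as the limit on the p-value, 32 as the enrichment factor, and local bias detection switched on. Neither input library is named in the call. BWA and hg19 come from the submitters' processing notes, without versions.

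Rows with the same chromosome, start and end were counted as 1 peak (180505 rows, 160601 peaks). Positions are on hg19, counted from 1, with the deposited start taken as counted from 0. Densities leave out peak-free gaps over 1 Mb, and windows touching such a gap were not used. A window counts peak midpoints. Intervals are exact Poisson, Wilson or, for ratios, conditional exact, computed with scipy 1.17.1 in Python 3.11.15. Density, length, window counts, runs and the Poisson interval were tested on simulated data, and the other measures and intervals were not. The members, comparisons and lists were chosen with earlier results of these data known. The rule named the 10 widest peaks, the 5 fullest and emptiest windows, the 5 runs of most peaks, the 5 longest and shortest gaps, the 5 peaks of most rows and 3 peaks on each side of each limit, with ties broken by position. Copy number and the coverage of the libraries were not analysed here, and no genome or annotation of hg19 was used, so no sequence and no gene is given for a peak.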

Additional observations from a re-analysis of the deposited data

How the results depend on the processing

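Over 10 results and 39 other settings, 21 values stayed within their limits. The limit was the counting interval, 1 SD for the median width, or 1.5 times for the counts and the coefficient of variation. That SD is the spread of single peak widths (252 bp), a loose limit for a median. Merging took the median width from 328 to 351 bp and was counted among the 21. The other 18 moved, and a reversal of direction was not scored. The density of 97.1 peaks per Mb became 84.8 with peaks less than 1 kb apart merged, 51.7 for peaks at or above the list's median width and 110.1 with every row counted, by construction. The ratio to the rest of chromosome 14 became 3.14 by merging, 4.23 for the wider peaks, 3.15 by rows and 4.35 by covered bases, and the ratio to the 4 dense chromosomes became 1.44 by covered bases. The share of peaks of 420 bp or more became 34.6% by merging, and 11.8% were 600 bp or wider. The share with a neighbour was 45.3% for the wider peaks within 5 kb, 23.5% within 1 kb and 97.4% within 20 kb. The number of runs became 61 for the wider peaks, 102 with gaps of at most 2 kb and 35 with gaps of at most 1 kb. Low windows numbered 2 for the wider peaks and 4 with windows shifted by 125 kb. Limits of 22 and 43 Mb moved no result. No library could be left out, since each condition has 1. No paired analysis was possible because replicates and replicate numbers are lacking in the labels. Depth is unknown, so a place without a peak may have had too few reads for a call.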
